A study of Homo sapiens with 6 samples.

Results

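Caspases are the cysteine proteases that carry out apoptosis and inflammatory cell death, and cells hold them in check with inhibitor proteins. The members described here are the caspase genes CASP2, CASP4, CASP6, CASP8 and CASP9 and the inhibitor genes BIRC2, XIAP and CFLAR. They were chosen by symbol, as every probe set that the platform annotation assigns to exactly 1 gene with that symbol, which gave 27 of 22215 probe sets for 8 of 11963 genes. A probe set is a group of short array probes that reads 1 transcript region. The samples were HCT116 cells, an established human colon cancer line grown in serum-containing medium. Total RNA came from 3 samples of cells stably expressing an NFX1-91 shRNA and 3 samples of cells stably expressing a β-galactosidase control shRNA, both delivered with the lentiviral vector FUGW, so that both groups carried a hairpin. NFX1-91 is a splice form of the zinc finger protein NFX1, known as a repressor of the telomerase gene TERT. Nothing in the labels says whether the samples of a group came from separate cultures or separate infections, and p-values here cover only the array-to-array spread within a group, technical or not.

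Initiator caspases are switched on by assembly on adaptor proteins. CASP8 is recruited to death receptors by FADD, CASP9 is activated on the apoptosome formed by APAF1 and cytochrome c, and CASP2 is activated through PIDD1 and CRADD. CASP6 is an effector caspase that cleaves nuclear lamins, and CASP4 is an inflammatory caspase that responds to bacterial lipopolysaccharide and cleaves gasdermin D. XIAP binds and blocks caspases directly, BIRC2 is a ubiquitin ligase of tumour necrosis factor signalling, and CFLAR encodes c-FLIP, a relative of CASP8 without protease activity that limits CASP8 activation at death receptors. These activities are set largely at the level of protein cleavage and binding, which an RNA array does not read.

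Most caspase and inhibitor probe sets differed little between the cells with the NFX1-91 hairpin and the control cells. Of the 27 probe sets 2 rose, both of CFLAR, 1 fell, of CASP2, and 24 did not pass an adjusted p of 0.05 in limma. Over all probe sets 25.7% passed, 12.0% as higher and 13.7% as lower. The arrays of the 2 groups did not overlap for 7 member probe sets, against 39.0% of all probe sets. The median log2 change of the members was 0.06, and that of all probe sets was 0.01. Of the member probe sets 0 changed by 1.5-fold or more, and 20 had a 95% interval that lay within a 1.5-fold change in either direction. Among all 22215 probe sets these counts were 1778 and 15064. An unadjusted p under 0.05 was reached by 5 of 27, and by 7841 of all 22215 probe sets. Leaving out 1 array at a time gave 0 to 2 higher and 0 to 5 lower member probe sets, and the arrays concerned are given with each gene. In RNA of a whole culture, fewer cells with a transcript and less of it per cell cannot be told apart. Changes are differences of log2(signal + 16), NFX1-91 shRNA minus control shRNA, with each array scaled to a mean signal of 500, and this scale understates the change of dim probe sets.

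**Figure D1:**
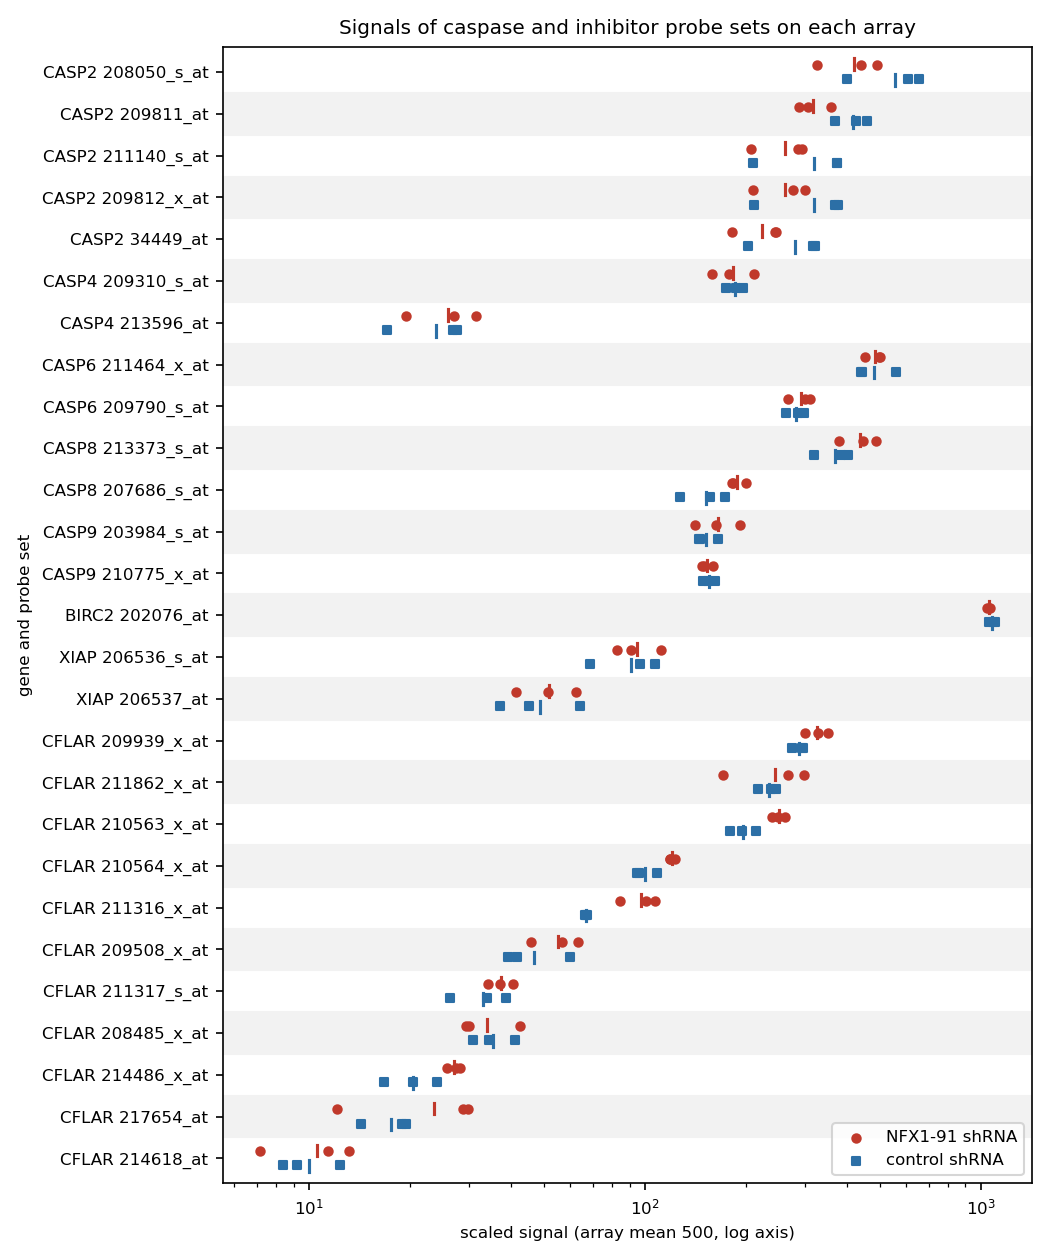
Scaled signal (array mean 500, log axis) of each of the 27 caspase and inhibitor probe sets on the 6 arrays, with NFX1-91 shRNA arrays as circles above control shRNA arrays as squares and a vertical tick at each group mean. The groups overlap in all but 7 probe sets, 5 of which belong to CFLAR.

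**Figure D2:**
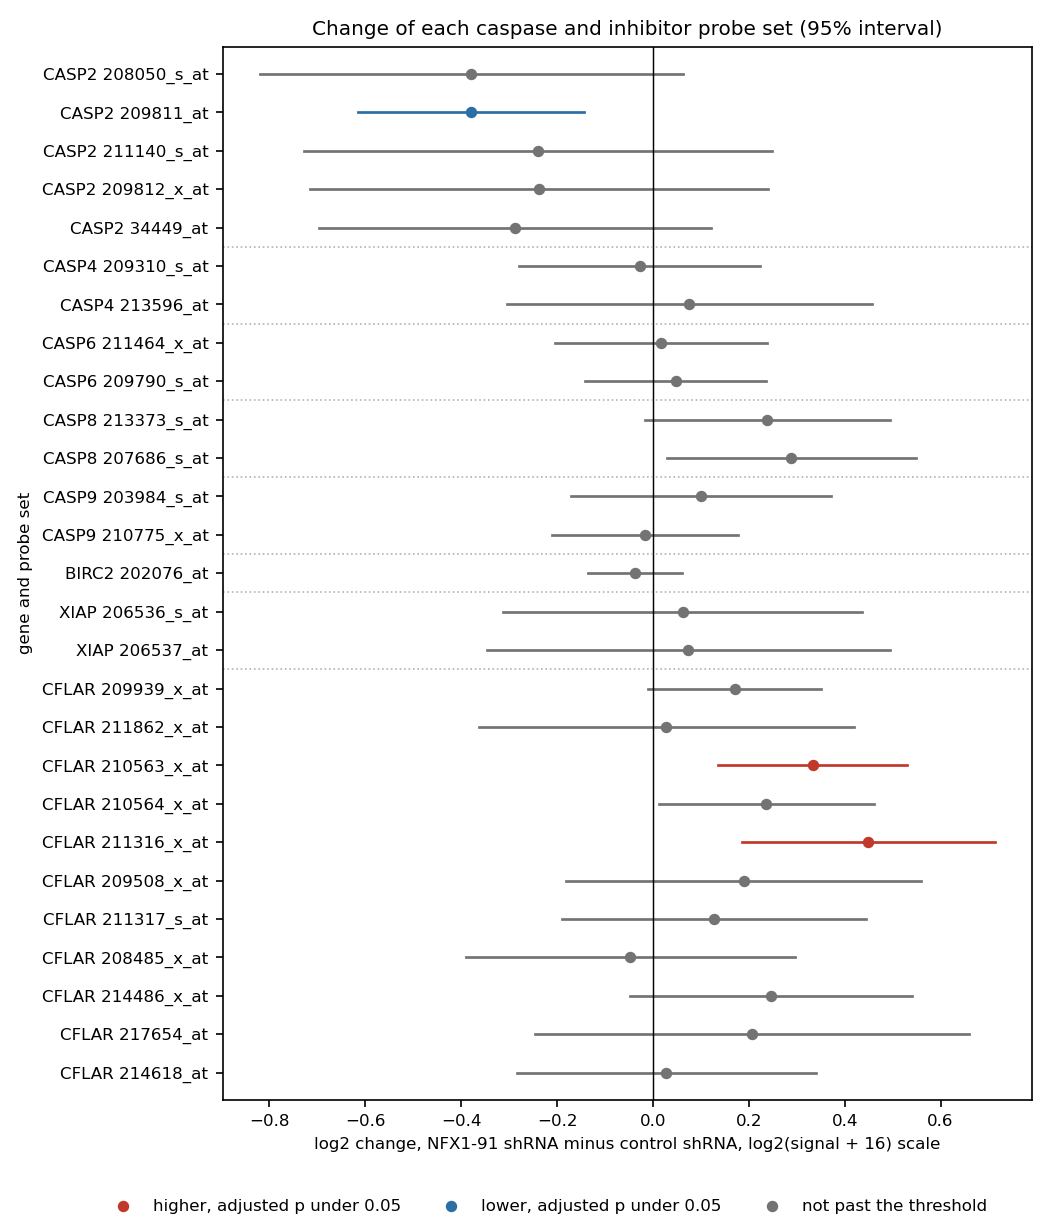
Log2 change (NFX1-91 shRNA minus control shRNA, on the log2(signal + 16) scale) of each member probe set with its 95% limma interval, coloured by call. All 5 CASP2 estimates lie below 0, both CASP8 estimates and 10 of 11 CFLAR estimates lie above 0, and the other members lie close to 0.

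The hairpin's target was read by 3 NFX1 probe sets, which may detect more than 1 NFX1 form. The brightest, 202584_at, had signals of 124, 139 and 138 in NFX1-91 shRNA arrays and 159, 144 and 139 in control arrays (log2 change -0.13, SE 0.096, adjusted p = 0.400). For 202585_s_at the log2 change was -0.06 (adjusted p = 0.775). Only the dimmest, 210268_at, fell, with 8.87, 8.83 and 4.56 in NFX1-91 shRNA arrays and 16.8, 17.7 and 24.4 in control arrays (log2 change -0.60, adjusted p = 0.0137), which is around and below the offset of 16. Colon epithelial markers were bright in both groups (EPCAM, CDH1 and 3 keratins, at or above percentile 79.8 of brightness, of which 2 rose and 2 fell). Markers of blood cells, fibroblasts and endothelium lay at or below percentile 62.3, and 1 of 12 passed the test, HBB (log2 change 0.45, adjusted p = 0.0470). The repeated low value of an array, 0.777 to 0.797 on the scaled signal, held 397 to 451 probe sets, and the lowest member reading was 7.14.

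Among the initiator caspases, CASP2 fell on 1 probe set in the cells with the NFX1-91 hairpin. All 5 CASP2 probe sets had a negative log2 change, from -0.38 to -0.24, and the other 4 did not pass. The called probe set, 209811_at, had signals of 305, 358 and 288 in NFX1-91 shRNA arrays and 368, 458 and 425 in control arrays. Every NFX1-91 shRNA array was below every control array. The means were 317 ± 36.6 in NFX1-91 shRNA arrays and 417 ± 45.3 in control arrays (SD, n = 3 each), a log2 change of -0.38 (SE 0.104, adjusted p = 0.0263). Its call ended without NFX1-91 shRNA replicate 1 or 3 or without control replicate 2 or 3 (adjusted p = 0.0903, 0.0944, 0.112 and 0.0845), and also with quantile normalization (adjusted p = 0.0506) and in the fit with no variance trend (0.0629). Across the alternatives tried the adjusted p of 209811_at lay between 0.00909 and 0.112.

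The 4 other CASP2 probe sets overlapped between the groups, with control replicate 1 low in each. On 208050_s_at the NFX1-91 shRNA arrays read 490, 440 and 326, and the control arrays read 399, 608 and 655. The probe set 34449_at gave 243, 246 and 181 in NFX1-91 shRNA arrays and 202, 316 and 320 in control arrays. The remaining pair behaved likewise. NFX1-91 shRNA arrays gave 293, 286 and 207 on 211140_s_at, against 210, 374 and 372 in control arrays. On 209812_x_at they gave 276, 299 and 210, against 212, 367 and 375 in control arrays. On each of these 4 probe sets, control replicates 2 and 3 were above all NFX1-91 shRNA arrays, and control replicate 1 was not. NFX1-91 shRNA replicate 3 was the lowest array of its group on every CASP2 probe set. The log2 changes of the 4 were -0.38, -0.29, -0.24 and -0.24, with adjusted p from 0.205 to 0.494. Without control replicate 1 all 5 CASP2 probe sets were called lower, and the 4 then had log2 changes of -0.59, -0.49, -0.50 and -0.49 (adjusted p from 0.0195 to 0.0289). Other single arrays moved them the other way. The log2 changes of the 4 were -0.22, -0.15, -0.09 and -0.10 without NFX1-91 shRNA replicate 3, -0.30, -0.19, -0.11 and -0.12 without control replicate 2, and -0.25, -0.18, -0.11 and -0.10 without control replicate 3, with adjusted p from 0.447 to 0.842. Array weights moved 208050_s_at past the threshold (log2 change -0.44, adjusted p = 0.0345). The change of 209811_at differed from those of the 4 others by 0.14 or less on the log2 scale. Probe sets of 1 gene share RNA and arrays, so they are not replicates of the comparison.

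**Figure D3:**
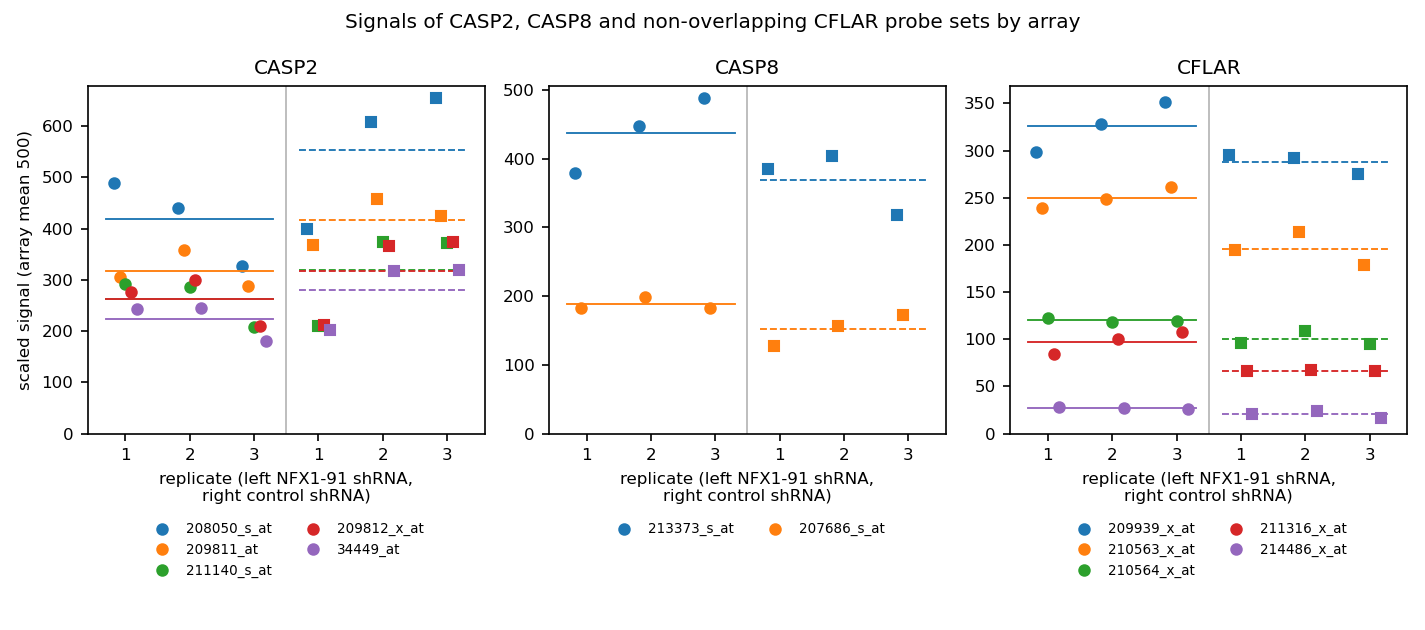
Scaled signal (array mean 500, linear axis from 0) by array for the 5 CASP2 probe sets, both CASP8 probe sets and the 5 CFLAR probe sets whose groups do not overlap, with NFX1-91 shRNA arrays as circles on the left, control shRNA arrays as squares on the right, and group means as lines (solid for NFX1-91 shRNA, dashed for control). On CASP2, control replicate 1 sits among the NFX1-91 shRNA arrays for 4 probe sets.

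The promoter window of CASP2 is shown because CASP2 had the only probe set that was called lower among the members. It comes from RefSeq on GRCh38.p14 and covers chr7:143288101-143288400 on the plus strand, 250 bases before to 50 bases after the annotated start. Windows of all 8 members were searched on both strands for the E-box CACGTG, to which MYC-family and USF factors bind, and for the NF-kB consensus, matches of which are in capitals where a sequence is printed. This window holds neither.
CASP2: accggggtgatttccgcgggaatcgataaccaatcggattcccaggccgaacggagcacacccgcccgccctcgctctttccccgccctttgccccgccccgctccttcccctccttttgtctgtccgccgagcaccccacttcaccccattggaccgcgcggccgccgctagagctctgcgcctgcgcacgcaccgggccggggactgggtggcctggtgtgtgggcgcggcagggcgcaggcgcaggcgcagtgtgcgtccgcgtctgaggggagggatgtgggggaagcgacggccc
A second CASP2 window, at chr7:143289338-143289637 on the plus strand, holds 1 match to the NF-kB consensus, GGGGCGTCCC, whose first base is at -111 from the start. The NF-kB match was found in 2 of 18 member windows and in 11.3% of all 35116 windows, and the E-box in 0 of 18 and in 7.26%. A match is a string of letters, not a measured binding site.

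CASP8, the initiator of death receptor signalling, had positive log2 changes on both of its probe sets, and neither passed. On 207686_s_at the signals were 182, 199 and 182 in NFX1-91 shRNA arrays and 127, 156 and 173 in control arrays. The groups did not overlap, and the log2 change was 0.29 (95% interval 0.03 to 0.55, adjusted p = 0.105). On 213373_s_at they were 379, 447 and 488 in NFX1-91 shRNA arrays and 384, 403 and 318 in control arrays, and here the groups overlapped (log2 change 0.24, 95% interval -0.02 to 0.50, adjusted p = 0.170). The mean of both probe sets was called higher in a fit over genes that was added after the values were seen (log2 change 0.26, SE 0.077, adjusted p = 0.0300). Quantile normalization and array weights moved 207686_s_at past the threshold (adjusted p = 0.0433 and 0.0393), while its log2 change was 0.18 without control replicate 1 (adjusted p = 0.212), and across the alternatives the value lay between 0.0393 and 0.290. The log2 change of 213373_s_at was 0.14 without control replicate 3 (adjusted p = 0.442).

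CASP9, the caspase of the apoptosome, was not distinguishable between the groups. Its probe set 203984_s_at gave 141, 163 and 192 in NFX1-91 shRNA arrays and 165, 145 and 146 in control arrays. The NFX1-91 shRNA arrays spanned the control arrays (log2 change 0.10, 95% interval -0.17 to 0.37, adjusted p = 0.621). For 210775_x_at the means were 153 ± 6.20 in NFX1-91 shRNA arrays and 155 ± 6.52 in control arrays (SD, n = 3 each), a log2 change of -0.02 (95% interval -0.21 to 0.18, adjusted p = 0.926).

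The effector CASP6 and the inflammatory CASP4 did not pass either. CASP6 averaged 292 ± 21.9 in NFX1-91 shRNA arrays and 282 ± 18.1 in control arrays on 209790_s_at (log2 change 0.05, 95% interval -0.14 to 0.24, adjusted p = 0.750). On 211464_x_at its signals were 502, 454 and 497 in NFX1-91 shRNA arrays and 443, 560 and 441 in control arrays, a log2 change of 0.02 (adjusted p = 0.936). Both CASP6 probe sets overlapped between the groups. CASP4 gave 159, 178 and 212 in NFX1-91 shRNA arrays and 175, 187 and 195 in control arrays on 209310_s_at, with the control arrays inside the range of the others (log2 change -0.03, 95% interval -0.28 to 0.22, adjusted p = 0.901). Its other probe set, 213596_at, was dim, with means of 26.0 ± 6.09 in NFX1-91 shRNA arrays and 23.9 ± 5.84 in control arrays (SD, n = 3 each; adjusted p = 0.807).

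The inhibitors BIRC2 and XIAP stayed within the spread of the arrays. BIRC2, also known as cIAP1, was the most tightly measured member. It had signals of 1059, 1062 and 1044 in NFX1-91 shRNA arrays and 1103, 1061 and 1084 in control arrays. The groups overlapped by a narrow margin, and the log2 change was -0.04 (SE 0.043, 95% interval -0.13 to 0.06, adjusted p = 0.614). XIAP read 90.7, 112 and 82.4 in NFX1-91 shRNA arrays and 68.7, 96.8 and 107 in control arrays on 206536_s_at (log2 change 0.06, 95% interval -0.31 to 0.44, adjusted p = 0.846). The dimmer 206537_at gave 62.4, 51.5 and 41.4 in NFX1-91 shRNA arrays and 37.0, 64.3 and 45.3 in control arrays (log2 change 0.07, adjusted p = 0.833). The XIAP groups overlapped on both probe sets. For CASP4, CASP6, CASP9, BIRC2 and XIAP together, 0 of 9 probe sets passed, 0 had groups that did not overlap, and all 9 intervals lay within a 1.5-fold change in either direction. The count at an unadjusted p under 0.05 was also 0, and 0 of these 9 passed under any alternative tried. Over all 22215 probe sets 25.7% passed and 39.0% had groups that did not overlap. An interval within a 1.5-fold change was held by 15064 of them, and 7841 had an unadjusted p under 0.05.

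The inhibitor CFLAR rose on 2 of its probe sets. It has 11 probe sets, of which 8 have the suffix _x_at, which Affymetrix gives to probe sets that may also bind other transcripts, and its transcripts include long and short splice forms. Of the 11, 2 rose, 0 fell and 9 did not pass, and 10 had a positive log2 change, with a median of 0.19. The groups did not overlap for 5 of them, each with all NFX1-91 shRNA arrays above all control arrays. The 2 calls are 18.2% of its probe sets, beside 12.0% of all probe sets called higher and 25.7% called in either direction. The 5 without overlap are 45.5%, beside 39.0% of all probe sets in either direction. The upward part of that 39.0% was not counted. Probe sets of 1 gene share RNA and arrays, so these shares do not decide whether CFLAR stands apart.

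The larger rise was that of 211316_x_at, with signals of 84.1, 101 and 107 in NFX1-91 shRNA arrays and 66.6, 67.1 and 66.4 in control arrays. The control arrays lay within 1 signal unit of each other, and the NFX1-91 shRNA arrays were spread above them. The means were 97.4 ± 12.0 in NFX1-91 shRNA arrays and 66.7 ± 0.344 in control arrays (SD, n = 3 each), a log2 change of 0.45 (SE 0.116, adjusted p = 0.0206). The other riser, 210563_x_at, had 240, 249 and 261 in NFX1-91 shRNA arrays and 194, 214 and 179 in control arrays. Its means were 250 ± 10.9 in NFX1-91 shRNA arrays and 196 ± 17.3 in control arrays (SD, n = 3 each), a log2 change of 0.33 (SE 0.087, adjusted p = 0.0215). The call of 211316_x_at ended without NFX1-91 shRNA replicate 2 or 3 or control replicate 2 or 3 (adjusted p = 0.0870, 0.0687, 0.0663 and 0.0594), and across the alternatives the value lay between 0.00551 and 0.0870. The call of 210563_x_at ended without NFX1-91 shRNA replicate 2 or 3 or control replicate 3 (adjusted p = 0.0819, 0.0687 and 0.0740), and the value lay between 0.00989 and 0.0819.

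The other CFLAR probe sets gave smaller or less even differences. The brightest, 209939_x_at, had signals of 299, 329 and 352 in NFX1-91 shRNA arrays and 296, 293 and 275 in control arrays. The lowest NFX1-91 shRNA array was just above the highest control array (log2 change 0.17, 95% interval -0.01 to 0.35, adjusted p = 0.163). Of 16 alternatives, 1 called 209939_x_at higher, which was quantile normalization (log2 change 0.22, adjusted p = 0.0489). On 210564_x_at the NFX1-91 shRNA arrays read 123, 119 and 119, and the control arrays read 96.0, 109 and 94.5 (log2 change 0.24, adjusted p = 0.121). The dim 214486_x_at gave 28.2, 27.3 and 25.8 in NFX1-91 shRNA arrays and 20.5, 24.1 and 16.7 in control arrays (log2 change 0.25, adjusted p = 0.219). These 3 did not overlap between the groups and did not pass. On 211862_x_at, NFX1-91 shRNA replicate 3 was the lowest of all arrays, with 297, 266 and 171 in NFX1-91 shRNA arrays and 246, 238 and 218 in control arrays (log2 change 0.03, adjusted p = 0.938). The single negative change was that of 208485_x_at (-0.05, adjusted p = 0.875). The remaining 209508_x_at, 211317_s_at, 217654_at and 214618_at had log2 changes of 0.19, 0.13, 0.21 and 0.03, with adjusted p from 0.475 to 0.922. The last of these was the only member probe set with a mean signal below the offset of 16.

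The rise of 211316_x_at was set against the 9 CFLAR probe sets that were not called, by the log2 difference between the probe sets within each array. That difference did not overlap between the groups for 4 of the 9, which were 209939_x_at (0.28 on the log2 scale), 211317_s_at (0.32), 208485_x_at (0.50) and 214618_at, whose signal lies below the offset. An exact permutation test of 3 against 3 arrays cannot give a p below 0.1, and 211316_x_at was taken for its large change, so these values are a description and do not decide whether the CFLAR probe sets changed unequally. Averaged over all 11 probe sets, CFLAR had a log2 change of 0.18 (SE 0.090, adjusted p = 0.182), which did not pass. By the brightest probe set of each gene, 0 of the 8 member genes were called, against 30.0% of all genes.

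CFLAR, CASP10 and CASP8 follow each other directly among the protein-coding genes of their chromosome. Their promoter windows are shown as those of the neighbouring members with mostly positive log2 changes. The first windows of CFLAR and CASP8 cover chr2:201118466-201118765 and chr2:201233213-201233512, both on the plus strand of GRCh38.p14 and both from RefSeq. The CFLAR window holds 1 match to the NF-kB consensus, in capitals, whose first base is at -97 from the start. The other CFLAR windows hold neither motif. CFLAR is known as a gene that NF-kB can switch on, but any part of NF-kB in its change was not tested.
CFLAR: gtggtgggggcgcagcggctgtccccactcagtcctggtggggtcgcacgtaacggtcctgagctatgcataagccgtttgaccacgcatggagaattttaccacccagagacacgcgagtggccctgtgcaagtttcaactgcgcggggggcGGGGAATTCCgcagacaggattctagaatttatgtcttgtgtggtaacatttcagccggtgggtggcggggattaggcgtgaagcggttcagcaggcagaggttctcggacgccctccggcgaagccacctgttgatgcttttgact
CASP8: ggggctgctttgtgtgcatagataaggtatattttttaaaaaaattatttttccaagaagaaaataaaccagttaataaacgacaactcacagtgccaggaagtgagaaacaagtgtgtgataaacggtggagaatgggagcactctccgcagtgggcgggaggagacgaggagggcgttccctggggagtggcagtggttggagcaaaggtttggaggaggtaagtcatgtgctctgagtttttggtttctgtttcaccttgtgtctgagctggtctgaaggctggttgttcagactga
The CASP8 window holds neither motif. CASP10, another death receptor caspase that lies between them, had a log2 change of 0.10 on its brightest probe set (adjusted p = 0.823), and 0 of its 4 probe sets were called.

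The probe sets whose pattern over the 6 arrays was most like that of CFLAR 211316_x_at were those of SMPDL3B, RBMS1, DYNC1I2, MED20 and MAP4K4, with Pearson r of 0.998, 0.998, 0.998, 0.997 and 0.997 among 9978 single-gene probe sets above median brightness. Each has closely spaced control arrays, the lowest NFX1-91 shRNA value in replicate 1 and the highest in replicate 3, and each rose (log2 changes 0.62, 0.39, 0.33, 0.35 and 0.40). These correlations describe 6 arrays of 2 groups and carry no test.

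Around the members, single genes of the caspase pathway rose and fell, among them adaptors and receptors. Of 46 genes listed, 38 had a probe set of their own, and by the brightest probe set 5 rose, 6 fell and 27 did not pass. The shares among all genes by that rule were 13.4% higher and 16.6% lower. The median log2 change of the 38 was -0.01, and that of all genes was 0.00. The other 8 were not analysed here. Without NFX1-91 shRNA replicate 2 the counts were 3 higher and 4 lower.

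Of the 12 death receptor, ligand and adaptor genes measured, 2 rose, 3 fell and 7 did not pass, beside 13.4% of all genes higher and 16.6% lower. FADD, the adaptor that recruits CASP8, had signals of 332, 362 and 369 in NFX1-91 shRNA arrays and 609, 631 and 595 in control arrays. Every NFX1-91 shRNA array was far below the control arrays (log2 change -0.76, SE 0.064, adjusted p = 6.17e-05). CASP8AP2, a protein named for its binding to CASP8, gave 151, 159 and 163 in NFX1-91 shRNA arrays and 282, 261 and 290 in control arrays (log2 change -0.76, adjusted p = 0.000193). CRADD, the adaptor that binds CASP2, gave 129, 109 and 131 in NFX1-91 shRNA arrays and 200, 178 and 195 in control arrays (log2 change -0.58, adjusted p = 0.00298). On these 3 genes every NFX1-91 shRNA array was below every control array, as the groups also did not overlap for 39.0% of all probe sets in either direction. Each of the 3 was read by only 1 probe set. PIDD1, the partner of CRADD in CASP2 activation, had a log2 change of -0.21 (adjusted p = 0.0863). The death receptor FAS rose by 0.84 (adjusted p = 9.37e-05), with all 4 of its probe sets called. TNFRSF10D, a decoy receptor for TRAIL, rose by 0.72 on its only probe set (adjusted p = 0.0167). The call of TNFRSF10D ended without NFX1-91 shRNA replicate 1 or 2 (adjusted p = 0.0711 and 0.0859, over all alternatives 0.00314 to 0.0859).

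Among the 7 mitochondrial and apoptosome genes 1 rose, 3 fell and 3 did not pass, beside 13.4% of all genes higher and 16.6% lower. HTRA2, a mitochondrial protease that antagonises XIAP, fell, with 262, 266 and 294 in NFX1-91 shRNA arrays and 353, 372 and 375 in control arrays (log2 change -0.40, adjusted p = 0.00346), and both of its probe sets were called. The nuclease gene ENDOG fell by 0.40 (adjusted p = 0.0150) and cytochrome c, CYCS, by 0.12 (adjusted p = 0.0407), each on its only probe set. APAF1, the scaffold that activates CASP9, rose by 0.36 on its brightest probe set (adjusted p = 0.0334), and its 2 other probe sets did not pass. The XIAP antagonist DIABLO had a log2 change of -0.10 (adjusted p = 0.150). Leaving out single arrays ended the calls of ENDOG (without NFX1-91 shRNA replicate 1 or 2 or control replicate 2, adjusted p = 0.0602, 0.0771 and 0.0619), APAF1 (without NFX1-91 shRNA replicate 2 or 3 or control replicate 3, adjusted p = 0.124, 0.112 and 0.111) and CYCS (without any array other than control replicate 1, adjusted p from 0.0527 to 0.159). Over all alternatives the adjusted p ran to 0.0771 for ENDOG, 0.124 for APAF1 and 0.248 for CYCS.

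**Figure D4:**
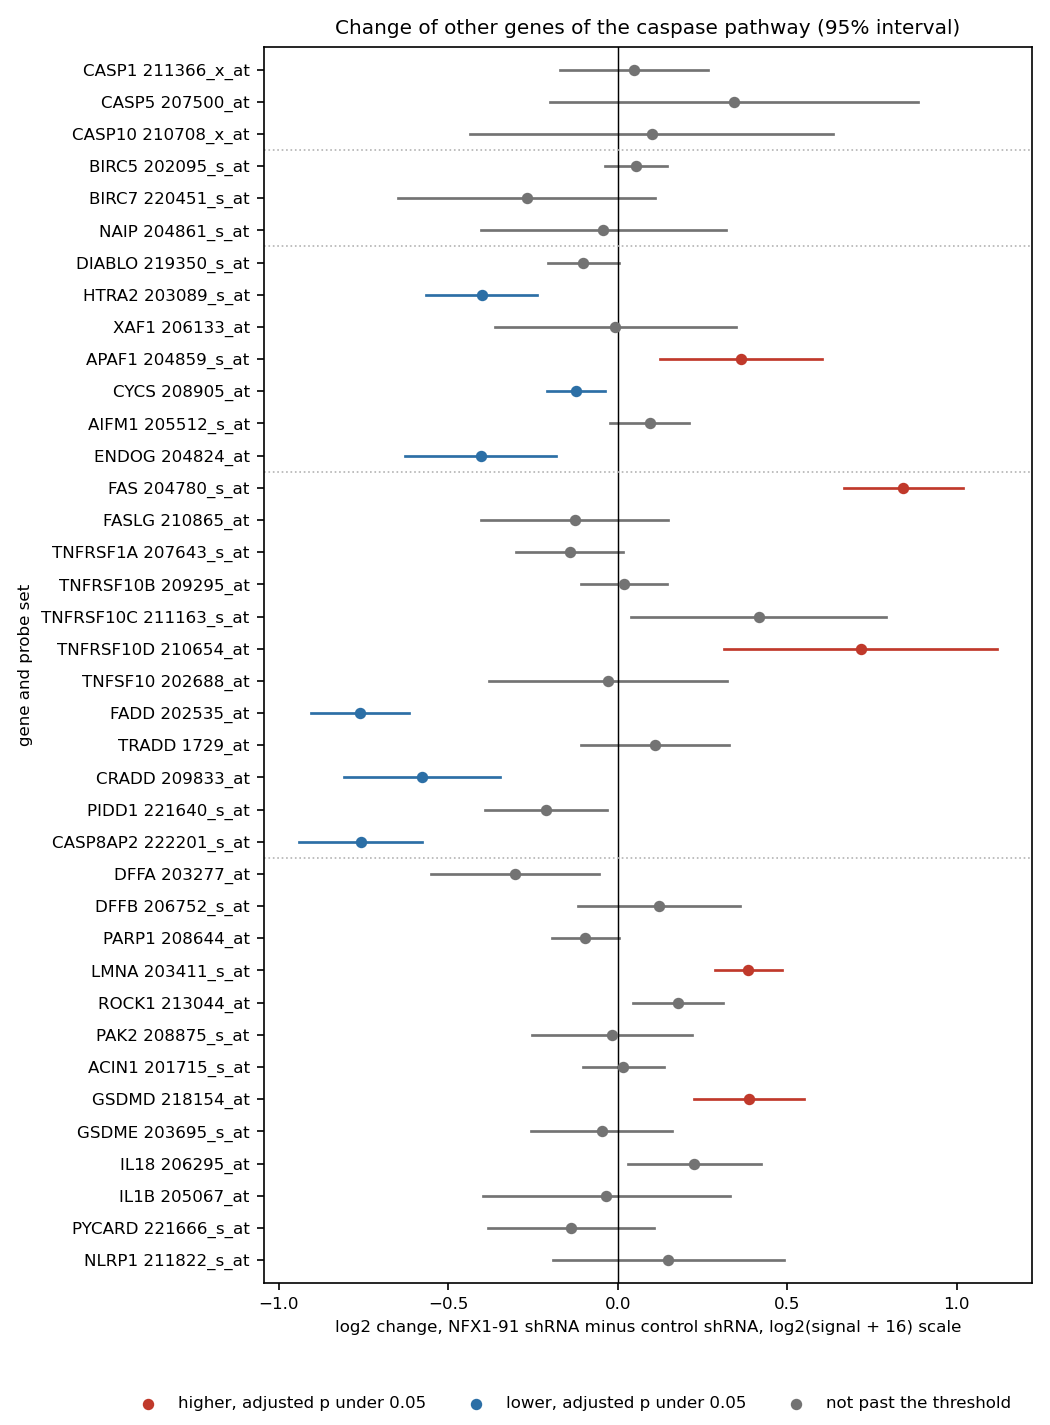
Log2 change (NFX1-91 shRNA minus control shRNA, on the log2(signal + 16) scale) with 95% limma interval for the brightest probe set of each of 38 other pathway genes, coloured by call. From the top, dotted lines separate caspases, IAP proteins, mitochondrial and apoptosome genes, death receptor genes, and substrates and inflammasome partners. FAS and TNFRSF10D lie farthest to the right, and FADD and CASP8AP2 farthest to the left.

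Of the 13 caspase substrates and inflammasome partners 2 rose, 0 fell and 11 did not pass, beside 13.4% of all genes higher and 16.6% lower. LMNA, which encodes lamin A and C, substrates of CASP6, rose by 0.39 (adjusted p = 0.00028), with 3 of its 4 probe sets called. GSDMD, the pore-forming substrate of CASP4, gave 296, 314 and 318 in NFX1-91 shRNA arrays and 243, 224 and 232 in control arrays on its only probe set (log2 change 0.39, adjusted p = 0.00398). Of the 3 other caspase genes measured, CASP1, CASP5 and CASP10, 0 passed, and of the 3 other IAP genes, BIRC5, BIRC7 and NAIP, 0 passed by the brightest probe set. One dimmer BIRC5 probe set, 202094_at, fell by 0.40 (adjusted p = 0.00779), while the other 2 had log2 changes of 0.05 and 0.10.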

How the data were processed

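Biotin-labelled cRNA was hybridised to Affymetrix arrays, per the labels' protocols. The deposited values are linear intensities, and each array's column sums to 1. The authors' probe summary and scaling steps are not given in the sources used here. Each array was multiplied to a mean of 500 and log2(signal + 16) was taken. All 22215 probe sets were fitted with limma 3.58.1 in R 4.3.3 (lmFit, eBayes with a variance trend, 2 groups of 3, two-sided), with Benjamini-Hochberg adjustment over all probe sets and a threshold of 0.05. The number of arrays limits the precision. Annotation gave 1 gene for 19064 probe sets, several for 1043 and none for 2108. A pathway gene is its brightest single-gene probe set. Named genes were all member probe sets, NFX1, pathway genes past the threshold, markers and the 5 probe sets most like the largest called member change. DIABLO, PIDD1, CASP10 and dimmer BIRC5 probe sets were named after their values were seen, and the motifs were chosen with results known. Members and lists were chosen with earlier results of these data known. Alternatives were other normalizations, offsets, variance models, filters, a replicate block and leaving out arrays. Self-tests used 5 simulated sets of 22215 probe sets, each with 200 planted changes, all in probe sets above median brightness. They recovered 23.2% of 1.25-fold, 70.0% of 1.5-fold, 93.2% of 2-fold and 99.6% of 4-fold changes. Far fewer probe sets changed there than were called in these data. Recovery in dimmer probe sets, some of which belong to the members, was not tested. Figures used Python 3.11.15 and matplotlib 3.10.9.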

Additional observations from a re-analysis of the deposited data

How the results depend on the processing

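With 3 arrays a group, the member calls rest on small differences. Against 2 higher and 1 lower member probe sets, quantile normalization gave 4 and 0, the fit without a variance trend had 0 lower, array weights had 2 lower, and a threshold of 0.01 gave 0 and 0. Leaving out 1 array gave 0 to 2 higher and 0 to 5 lower. The 8 genes by their brightest probe sets gave 0 and 0. By the mean of their probe sets, in a fit over fewer features, they gave 1 (CASP8) and 0. The CASP8 mean had an SE of 0.077, against 0.113 and 0.114 on its probe sets. Of 13 differences between CASP2 or CFLAR probe sets 4 did not overlap between the groups, and 2 with an offset of 1. Against 5 higher pathway genes, quantile normalization gave 8, a threshold of 0.01 gave 3, and leaving out 1 array gave 3 to 5 (3 without NFX1-91 shRNA replicate 2). Over all probe sets 5703 were called, 3567 at a threshold of 0.01, and 1669 against 2656 were higher without NFX1-91 shRNA replicate 2. Settings for pathway genes other than the replicate block and the mean of probe sets were added after the data were seen. The cause of the shifts between settings was not tested. No called member or pathway gene changed sign. With the replicate number as a block, 1 member probe set was higher (210563_x_at had an adjusted p = 0.0536), 1 was lower, and 4914 of all probe sets were called. No label says that equal replicate numbers share a culture or day, so the numbers were not taken as pairs. Same-numbered arrays had correlations of -0.06, 0.09 and -0.09 in their deviations from group means. Not every array correlated best with its own number. Signals under the offset of 16, 24.1% to 25.9% of an array, carry little information on change.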
